A study of Bos taurus with 94 samples.

Results

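The transcripts of the growth hormone receptor (GHR, ENSBTAG00000001335) and of the insulin-like growth factors IGF1 (ENSBTAG00000011082) and IGF2 (ENSBTAG00000013066) were followed across the tissues of Hereford cattle. These 3 genes were chosen by Ensembl identifier out of 24616 in the table, and the pairing of identifier and name was given with the choice. RNA sequencing of snap-frozen tissue had been done in 94 libraries, with a single library for most tissues, as a transcriptome resource for cattle genetics, and the labels name no treatment. The libraries fell into 35 groups by tissue label, of which 14 held 3 or more libraries and are called classes here. Every library carries the breed label Hereford and the age label adult, the fetal testis included. The labels name no animal, so libraries of a class are mostly different tissues that may come from the same animal, and the p-values measure the spread between these libraries.

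Growth hormone from the anterior pituitary binds GHR, a cytokine receptor at the cell surface, and signals through a JAK-STAT pathway. In the liver this drives transcription of IGF1, a circulating growth factor that also acts locally where it is made and that feeds back on the pituitary. IGF2 is a related ligand, expressed from the paternal allele in most mammalian tissues and best known for its part in fetal growth. Both ligands bind the type I IGF receptor, while the IGF2 receptor removes IGF2. In cattle, the uterus, the oviduct and the ovarian follicle are known sites of local IGF production.

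Levels are FPKM, that is fragments counted relative to gene length and to all mapped fragments. Comparisons between genes are rough, since the length used depends on gene models that were not given. The FPKM of all genes summed to between 585122 and 1062590 per library, and the number of sequenced fragments behind these values is unknown. A value of 0 may be a failed estimate, since 1177 genes with a median of at least 10 FPKM were listed at 0 in at least 1 library. The table holds no gene names, so tissue markers and the other genes of the pathway were not analysed here, and labels were checked by whole profiles. In earlier results of these data 13 libraries stood apart from their label, and their closest profiles bear on several values below. The choroid plexus library was closest to triceps brachii (Spearman's rho 0.84) and the corpus luteum library to longissimus dorsi (0.956), the library labelled diaphragm to that labelled gall bladder (0.994), bone marrow to the vesicular gland (0.922) and the vesicular gland to subcutaneous fat (0.97). The others are the gall bladder itself, the adrenal, trachea, larynx cartilage, tail of epididymis, ipsilateral isthmus, follicle replicate 1 and mammary replicate 1.

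The 3 genes had unlike ranges. IGF2 was above 0 in all 94 libraries, with a lowest value of 0.313, a median of 88.8 and a highest value of 1158 FPKM. GHR had a median of 2.85 and a highest value of 47.9 FPKM, and was listed at 0 in 5 libraries. IGF1 had the lowest median, 0.797, and a highest value of 70.1 FPKM, and was listed at 0 in 27 libraries. IGF2 reached at least 100 FPKM in 46 libraries, whereas neither GHR nor IGF1 did so in any.

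The index tau, computed from the 35 group means, is higher the fewer groups express a gene. Tau was 0.795 for IGF1, 0.617 for GHR and 0.308 for IGF2, beside a median of 0.504 over the 18031 genes tested. Over the 19 groups of 2 or more libraries (78 libraries), the group accounted for 75.8% of the variance of log2(FPKM + 1) of IGF1, 72.9% of that of GHR and 64.2% of that of IGF2. The median gene was at 59.5%.

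**Figure D1:**
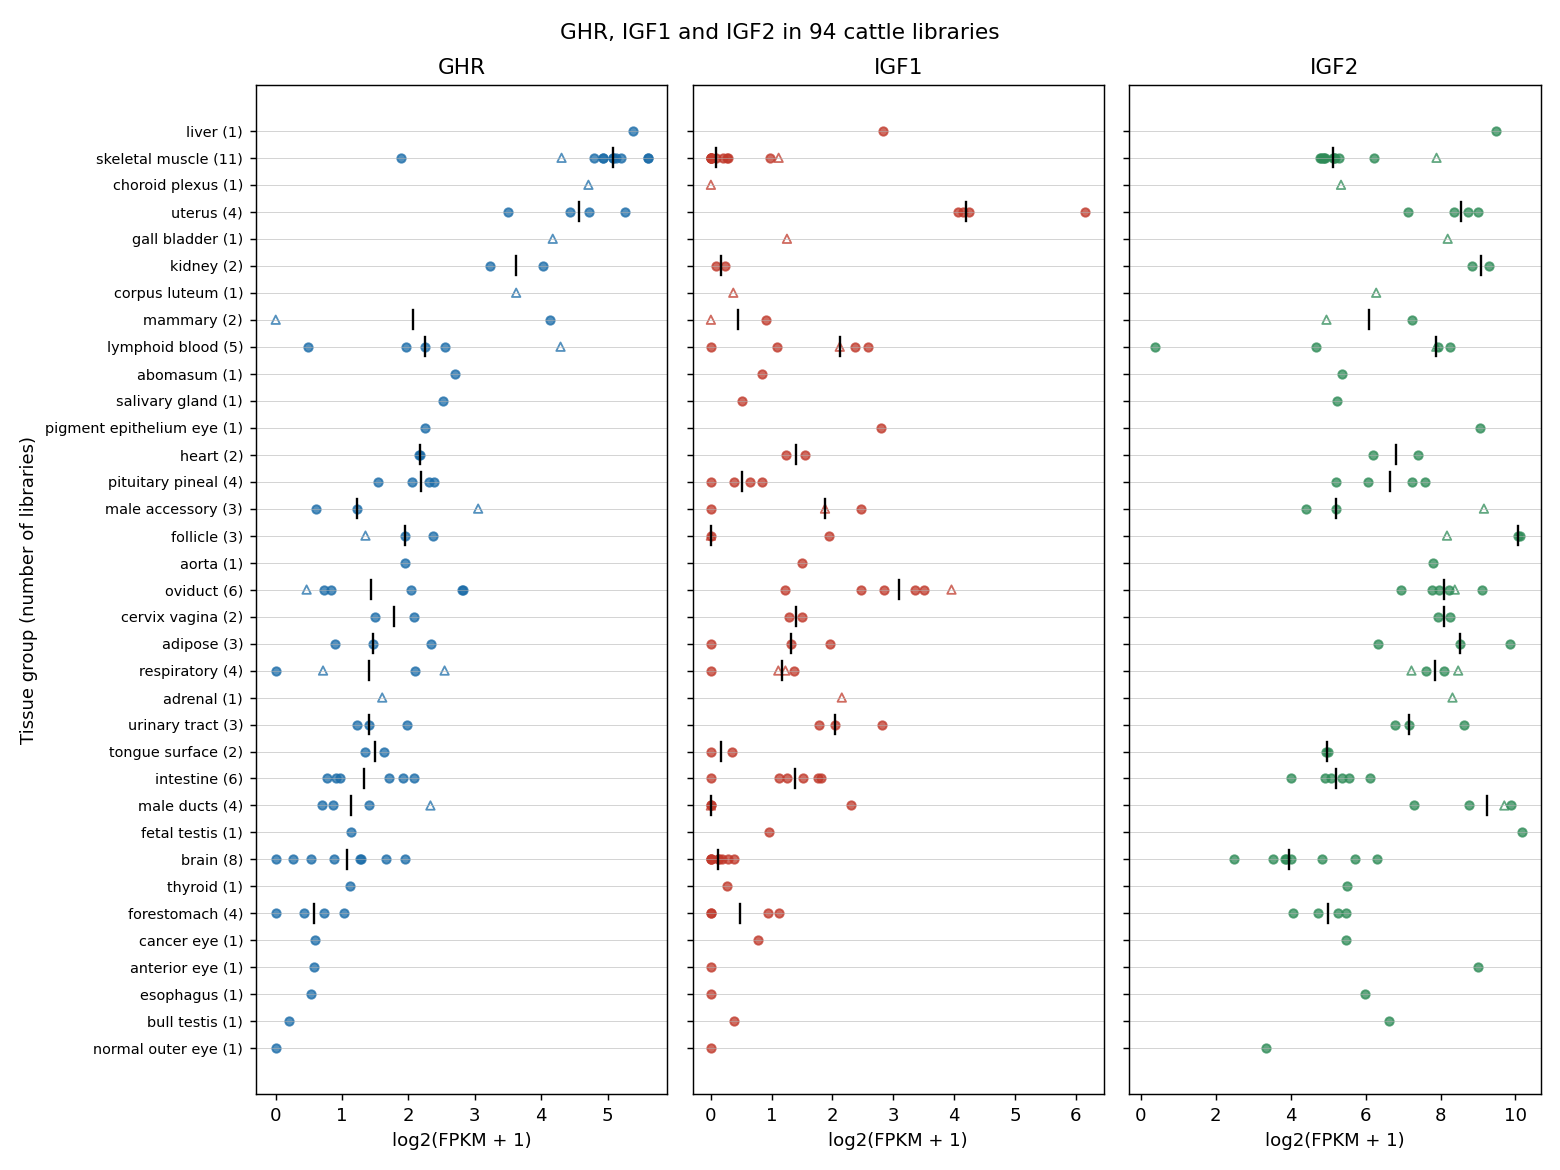
Level of GHR, IGF1 and IGF2 as log2(FPKM + 1) on the x axes, by tissue group on the y axis (number of libraries in brackets, groups ordered by mean GHR). Each point is a library, open triangles are the 13 libraries that stood apart from their label, and black bars are group medians; GHR is highest in muscle (up to 47.9 FPKM) and liver (40.6), IGF1 in the uterus (up to 70.1), and IGF2 in the fetal testis (1158).

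GHR, the receptor, was highest in skeletal muscle, liver and endometrium. In the 11 muscle libraries its lowest value was 2.69, its median 32.9 and its highest 47.9 FPKM, against a lowest of 0, a median of 2.11 and a highest of 40.6 FPKM in the other 83. The 9 limb and trunk muscles lay close together, at 35.2 ± 7.67 FPKM (SD, n = 9), from 26.6 in biceps femoris to 47.9 in semitendinosus. Only the liver and the caruncular endometrium, at 40.6 and 37.6 FPKM, reached the lowest of these 9 muscles. In these 9 libraries GHR ranked above 90.2% to 94.3% of the genes tested.

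The other muscle libraries were lower. Internal tongue muscle, closest in profile to the library labelled corpus luteum (0.915), had 2.69 FPKM of GHR. The library labelled diaphragm had 18.8 FPKM, beside 17.0 in the library labelled gall bladder. Those labelled choroid plexus and corpus luteum, whose profiles were closest to muscle, had 25.2 and 11.3 FPKM. Cardiac muscle lay well below limb muscle, at 3.54 FPKM in the ventricle and 3.45 in the atrium.

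Each class was tested against all other libraries with limma on log2(FPKM + 1), and calls required an adjusted p below 0.05 together with a difference of 1 or more on the log2 scale, in either direction. GHR was called in 2 of 14 classes, both times higher. In skeletal muscle the log2 difference of GHR was 2.95 ± 0.40 (SE; limma adjusted p = 1.29e-09), and 11 of 11 libraries were above the median of the rest. Of all genes 4.61% were called higher in muscle, and the median difference over all genes there was -0.66. Without the 13 libraries that stood apart the log2 difference of GHR was 3.1 (limma adjusted p = 2.31e-10).

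In the uterus, GHR was 37.6 FPKM in caruncular, 25.2 in ipsilateral intercaruncular and 20.7 in contralateral intercaruncular endometrium, and 10.3 FPKM in myometrium, the smooth muscle wall. The other 90 libraries had a median of 2.73 FPKM and reached 47.9. All 4 uterine libraries were above that median, but 17 of the 90 others were at or above the myometrium. The log2 difference was 2.41 ± 0.76 (SE; limma adjusted p = 0.0448), in a class where 4.36% of genes were called higher. The call rests on all 4 libraries: leaving out any of them gave an adjusted p of 0.0523 to 0.269 with log2 differences of 2.15 to 2.74. It also missed the threshold with quantile normalization (2.01, adjusted p = 0.271) and with a pseudocount of 0.1 (3.06, adjusted p = 0.113).

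GHR levels in the remaining tissues were lower, with a few exceptions in single libraries. Kidney cortex had 15.3 and kidney medulla 8.35 FPKM. Mammary replicate 2, closest in profile to the fornix vagina (0.905), had 16.6 FPKM. Mammary replicate 1, closest to the pineal gland (0.858), was listed at 0. Bone marrow had 18.6 FPKM, and the other lymphoid and blood libraries had 4.86 (spleen), 3.75 (mesenteric lymph node), 2.91 (lymph nodes) and 0.403 (white blood cells). The 3 fat libraries had 4.08 (KPH fat), 1.77 (subcutaneous) and 0.858 FPKM (mammary gland fat).

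The lowest class was the forestomach, the fermenting chambers before the true stomach. GHR was 1.04 FPKM in the reticulum, 0.654 in the rumen and 0.347 in the omasum, and was listed at 0 in rumen papillae. Brain was next, with a lowest value of 0 in the thalamus, a median of 1.12 and a highest of 2.85 FPKM in the midbrain. Every forestomach and brain library lay below the median of the rest, 2.88 and 3.02 FPKM. Neither difference passed the test, with log2 differences of -1.70 ± 0.78 in the forestomach (SE; limma adjusted p = 0.221) and -1.30 ± 0.56 in brain (limma adjusted p = 0.0759). A model of group means called both (-1.55, adjusted p = 0.014, and -1.10, adjusted p = 0.00772), and quantile normalization called brain (-1.52, adjusted p = 0.0433).

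Neighbours in the order of class means mostly overlapped in range, which a single far library can decide. For GHR the order ran from skeletal muscle and uterus through lymphoid and blood, pituitary and pineal, male accessory glands, follicle, oviduct, adipose, respiratory and urinary tract, intestine and male ducts to brain and forestomach. All 13 neighbouring pairs of these 14 classes overlapped in range. Uterus and lymphoid and blood did so only through bone marrow, at 18.6 FPKM, which stood apart. For IGF1 12 of 13 neighbouring pairs overlapped, and for IGF2 all 13 did. The exception for IGF1 was uterus and oviduct, whose direct comparison missed the threshold (limma adjusted p = 0.116). The share of overlapping pairs over all genes was not computed.

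**Figure D2:**
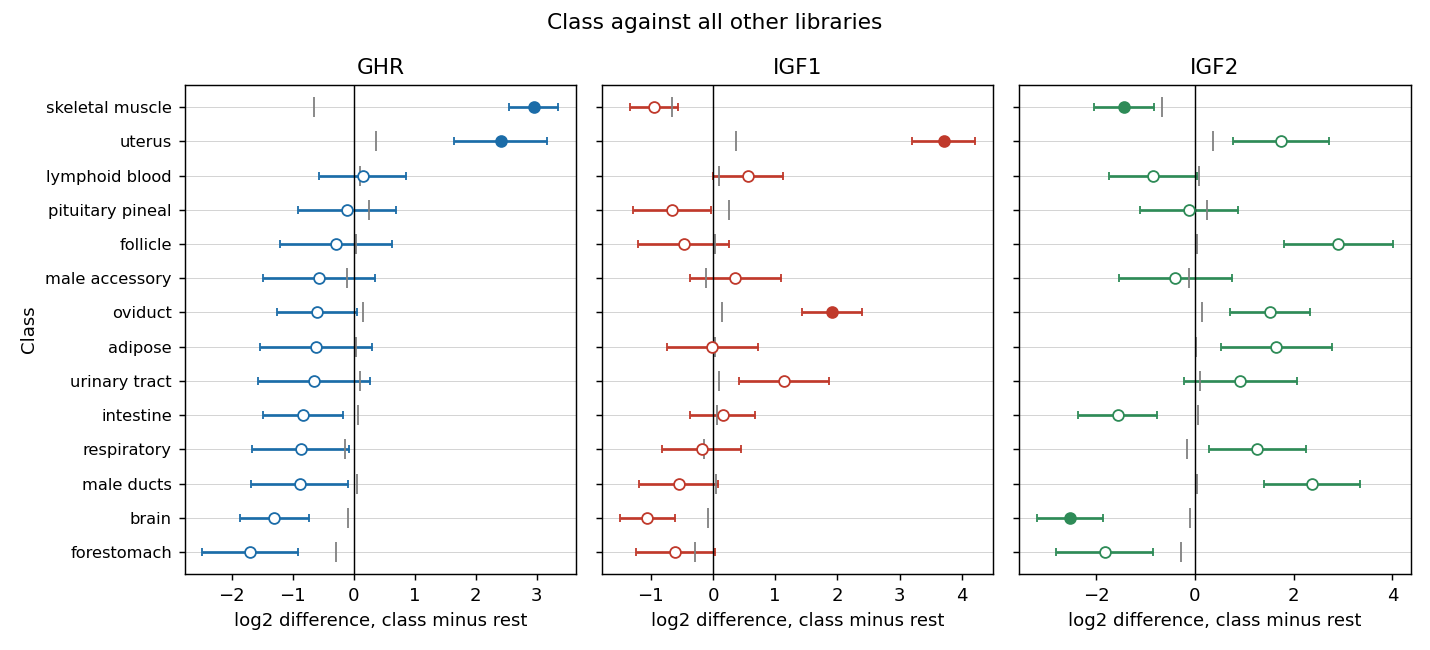
Log2 difference (class minus all other libraries, log2(FPKM + 1) scale) on the x axes for 14 classes on the y axis; bars are SE, filled points passed the threshold of the limma test and grey ticks are the median over all genes. GHR passed in skeletal muscle (2.95) and uterus (2.41), IGF1 in uterus (3.71) and oviduct (1.91), and IGF2 in brain (-2.52) and skeletal muscle (-1.43).

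IGF1, the ligand whose liver transcription growth hormone controls, was highest in the uterus and not in the liver. Myometrium had 70.1 FPKM, caruncular endometrium 18.0, contralateral intercaruncular endometrium 16.7 and ipsilateral intercaruncular endometrium 15.7. The myometrium library was closest in profile to the trachea (0.919), which stood apart, and not to the endometrium. None of the other 90 libraries reached the lowest uterine value. Their median was 0.636 and their highest 14.5 FPKM, in the ipsilateral isthmus, which stood apart, so the gap was narrow. The share of all genes with such a gap was not computed. The log2 difference was 3.71 ± 0.51 (SE; limma adjusted p = 6.05e-08), beside 0.36 for the median of all genes. Of all genes 4.36% were called higher in the uterus. The call held without any single uterine library, with log2 differences of 3.21 to 3.91, and the lowest of these was the one without myometrium. In bulk tissue, fewer cells of a type and less RNA per cell cannot be told apart.

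The oviduct was the second class in which IGF1 was called. IGF1 was 14.5 FPKM in the ipsilateral and 10.3 in the contralateral isthmus, 9.27 and 6.16 in the ipsilateral and contralateral ampulla, and 1.34 and 4.57 in the ipsilateral and contralateral infundibulum. The isthmus, nearest to the uterus, was thus highest and the infundibulum lowest in both sets of sides, but each segment has 1 library a side. The other 88 libraries had a median of 0.493 and a highest value of 70.1 FPKM. The log2 difference was 1.91 ± 0.49 (SE; limma adjusted p = 0.00449), with 6 of 6 libraries above the median of the rest and 6.12% of all genes called higher. Without the 13 libraries, among them the ipsilateral isthmus, it was 1.69 (limma adjusted p = 0.042).

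The liver, a single library with no replicate check, had 6.08 FPKM of IGF1, rank 9 of 94. Ahead of it were the 4 uterine libraries and 4 of the 6 oviduct libraries. Close behind it were the ureter at 6.01, the pigment epithelium of the eye at 5.98 and lymph nodes at 5.0 FPKM. The urinary tract as a class, with 6.01, 3.1 and 2.42 FPKM in ureter, urethra and bladder, exceeded the remaining libraries' median of 0.708 in 3 of 3 cases. The difference of 1.14 ± 0.72 (log2) did not pass the test (SE; limma adjusted p = 0.979).

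IGF1 was near the bottom of the scale in limb muscle, brain and kidney. Of the 9 limb and trunk muscles 5 were listed at 0, and the highest was gluteus medius at 0.211 FPKM. Diaphragm and internal tongue muscle had 1.16 and 0.960 FPKM, and the ventricle and atrium 1.93 and 1.35 FPKM. The muscle class differed by -0.95 ± 0.39 on the log2 scale (SE; limma adjusted p = 0.0305), short of the size required, and the median gene was at -0.66.

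In brain, IGF1 did not exceed 0.304 FPKM (diencephalon) and was listed at 0 in thalamus, frontal and temporal cortex, and the class differed by -1.05 ± 0.45 (SE, log2; limma adjusted p = 0.0704). Kidney cortex and medulla had 0.175 and 0.0615 FPKM. Ovarian follicles, which nourish the oocyte, were listed at 0 in replicates 1 and 2 and had 2.83 FPKM in replicate 3.

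IGF2, the second ligand, had the highest median of the 3 transcripts and was highest in the fetal testis, in 2 follicle libraries, in vas deferens and in subcutaneous fat. The fetal testis had 1158 FPKM, against 98.5 in the bull testis, each a single library. The follicle libraries had 1103 and 1067 FPKM in replicates 3 and 2 and 287 in replicate 1, which was closest in profile to the body of the epididymis (0.909). In the male ducts IGF2 was 937 FPKM in the vas deferens, 832 in the tail, 430.4 in the body and 156 in the head of the epididymis. The tail library was closest in profile to the gall bladder (0.931), and both stood apart from their label. Subcutaneous fat had 929.8, KPH fat 366 and mammary gland fat 79.1 FPKM. By group mean the liver (718), the kidney (545), the pigment epithelium (525.6) and the anterior eye (510.3) ranked above fat (458). The library labelled vesicular gland had 570.2 FPKM, and cancer eye and the normal outer eye layer had 43.9 and 9.09 FPKM.

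None of these classes passed the test. The log2 difference was 2.90 ± 1.10 in follicles (SE; limma adjusted p = 0.531), where 3 of 3 libraries were above the median of the rest, 77.6 FPKM. It was 2.37 ± 0.96 in the male ducts (limma adjusted p = 0.426), with 4 of 4 above 77.2 FPKM, and 1.65 ± 1.13 in fat (limma adjusted p = 0.947). The difference in fat was 0.84 to 2.61 with 1 library left out, and mammary gland fat, at 79.1 FPKM, was barely above the median of the rest, 77.6. A model of group means called the follicles (2.58, adjusted p = 0.0454).

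Brain had the lowest IGF2 of the classes. Its values ran from 4.64 FPKM in the thalamus through a median of 14.4 to 77.6 in the midbrain, against a median of 140.4 FPKM in the other 86 libraries. All 8 brain libraries lay below that median. The 3 cortex libraries (cerebral, frontal and temporal) held 13.1 ± 2.34 FPKM (SD, n = 3), and the deep regions thalamus, pons, diencephalon and midbrain had 4.64, 27.7, 51.8 and 77.6 FPKM, lying on both sides of the cortex. The log2 difference of the class was -2.52 ± 0.67 (SE; limma adjusted p = 0.00204), with 6.49% of all genes called lower, and it was -2.38 without the 13 libraries (limma adjusted p = 0.00491).

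IGF2 was also called lower in skeletal muscle, in a class where 33.3% of all genes were called lower. The 11 libraries had a lowest value of 26.8, a median of 34.3 and a highest of 237 FPKM (the library labelled diaphragm), against a median of 142 FPKM in the other 83. The 9 limb and trunk muscles were uniform at 31.2 ± 4.17 FPKM (SD, n = 9). The log2 difference was -1.43 ± 0.61 (SE; limma adjusted p = 0.0367), and the median gene was at -0.66. With quantile normalization it was -0.81 (adjusted p = 0.274), and leaving out any 1 of 9 of the 11 libraries also ended the call (adjusted p up to 0.0591).

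Intestine and forestomach were low as well without passing the test. IGF2 ran from 15.2 FPKM in the duodenum through a median of 36.4 to 68.6 in the ileum, and the forestomach had 43.8, 37.7, 25.7 and 15.6 FPKM in reticulum, omasum, rumen and rumen papillae. Log2 differences were -1.56 ± 0.80 in the intestine (SE; limma adjusted p = 0.325) and -1.83 ± 0.98 in the forestomach (limma adjusted p = 0.312). The lowest library of all was white blood cells, with 0.313 FPKM of IGF2 against 24.7 in the spleen and 304 in lymph nodes.

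In the other 10 classes no member was called. The share of all genes called in either direction was 0.0111% in male accessory glands, 0.0444% in the respiratory tract, 0.105% in adipose, 0.172% in the urinary tract, 0.227% in follicles and 0.893% in male ducts. It was 4.77% in forestomach, 6.03% in pituitary and pineal, 6.63% in intestine and 10.1% in lymphoid and blood.

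Libraries with high GHR were of both kinds, with IGF1 near 0 and with IGF1 among the highest. Of the 21 libraries with at least 10 FPKM of GHR, 13 had less than 1 FPKM of IGF1, as did 39 of the other 73. These 13 were the 9 limb and trunk muscles, those labelled corpus luteum and choroid plexus, kidney cortex and mammary replicate 2. IGF1 reached at least 5 FPKM in 5 of the 21, the 4 uterine libraries and the liver, and in 7 of the other 73, namely both ampullae, both isthmus libraries, ureter, pigment epithelium and lymph nodes. GHR exceeded IGF1 in 66 libraries and IGF1 exceeded GHR in 23, while both were listed at 0 in 5.

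**Figure D3:**
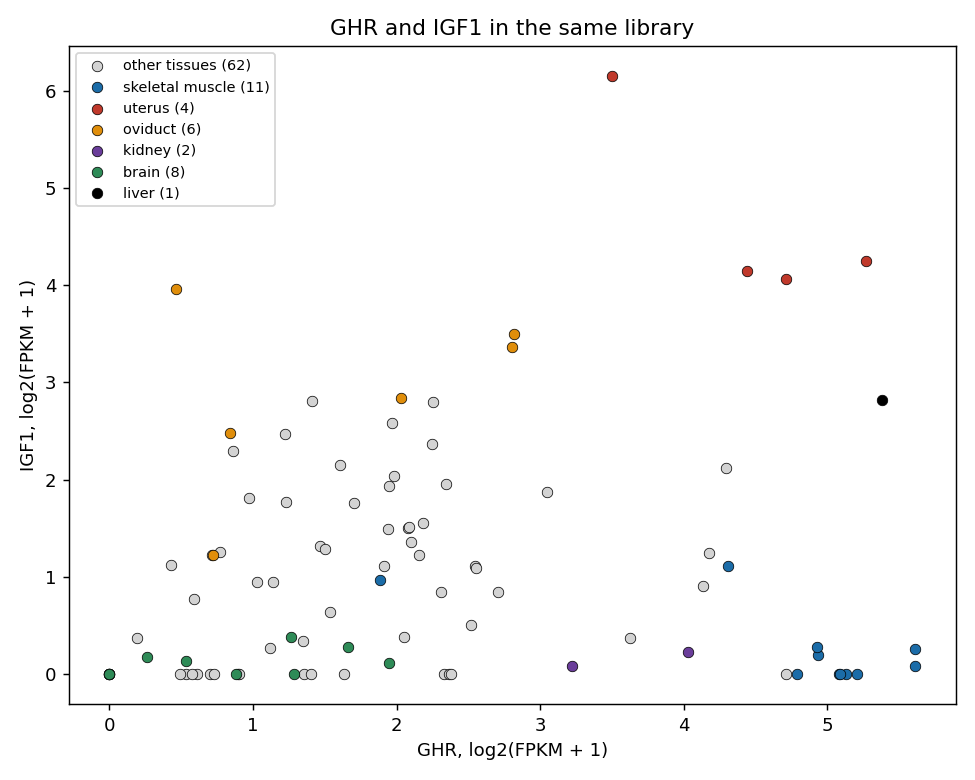
GHR (x axis) and IGF1 (y axis) in the same library, both as log2(FPKM + 1); each point is 1 of 94 libraries, coloured by tissue group. Limb and trunk muscles lie along the bottom right, with GHR of 26.6 to 47.9 FPKM and IGF1 of at most 0.211, and the uterus lies at the top with IGF1 of 15.7 to 70.1 FPKM.

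Over the 94 libraries Spearman's rho of GHR and IGF1 was 0.21 and Pearson's r of log2(FPKM + 1) 0.17, and r was 0.22 without the 2 libraries farthest from the median of GHR. For GHR and IGF2 rho was 0.19 and r 0.14, or 0.20 without the 2 libraries. IGF1 and IGF2 had the highest values, rho 0.51 and r 0.48, with r 0.51 without 2 libraries. These are descriptions, since libraries share tissue classes and perhaps animals. The share of FPKM held by the 10 most abundant genes of a library moved with both ligands, with rho of -0.53 for IGF1 and -0.57 for IGF2 but -0.06 for GHR. GHR was lower where the FPKM of all genes summed higher (rho -0.49), beside -0.27 for IGF1 and -0.29 for IGF2. The part of either quantity in these relations, or in the low GHR values above, was not tested.

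IGF2 exceeded IGF1 in FPKM in all 94 libraries. The part of the gene models in this comparison of different genes was not tested. The difference within a library, on the log2(FPKM + 1) scale, was tested in the 4 classes of 6 or more libraries by an exact two-sided sign-flip permutation test. It averaged 5.11 ± 0.60 in skeletal muscle (SD, n = 11; exact adjusted p = 0.00391 over 4 classes), 4.19 ± 1.16 in brain (SD, n = 8; exact adjusted p = 0.0156), 3.93 ± 0.95 in intestine (SD, n = 6; exact adjusted p = 0.0312) and 5.17 ± 0.59 in oviduct (SD, n = 6; exact adjusted p = 0.0312). Since every difference has the same sign, each p is the smallest that the test can give for its n and adds nothing to the count of 94.

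The margin varied between tissues. In myometrium it was 0.97, from 139 FPKM of IGF2 and 70.1 of IGF1, and in the 3 endometrial libraries between 4.30 and 4.76. In the follicles it was 8.17 to 10.06 and in the male ducts 7.30 to 9.70, where IGF1 was listed at 0 in 2 of 3 and 3 of 4 libraries. Kidney medulla, with 631 FPKM of IGF2 and 0.0615 of IGF1, had a margin of 9.22. Where IGF1 was under 1 FPKM, as in 52 libraries, the margin lies within 1 of log2(IGF2 + 1) and mostly restates the IGF2 level. IGF2 also exceeded GHR in 88 libraries. In the other 6, semitendinosus, rectus femoris, triceps brachii, infraspinatus, longissimus dorsi and white blood cells, GHR was the higher.

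**Figure D4:**
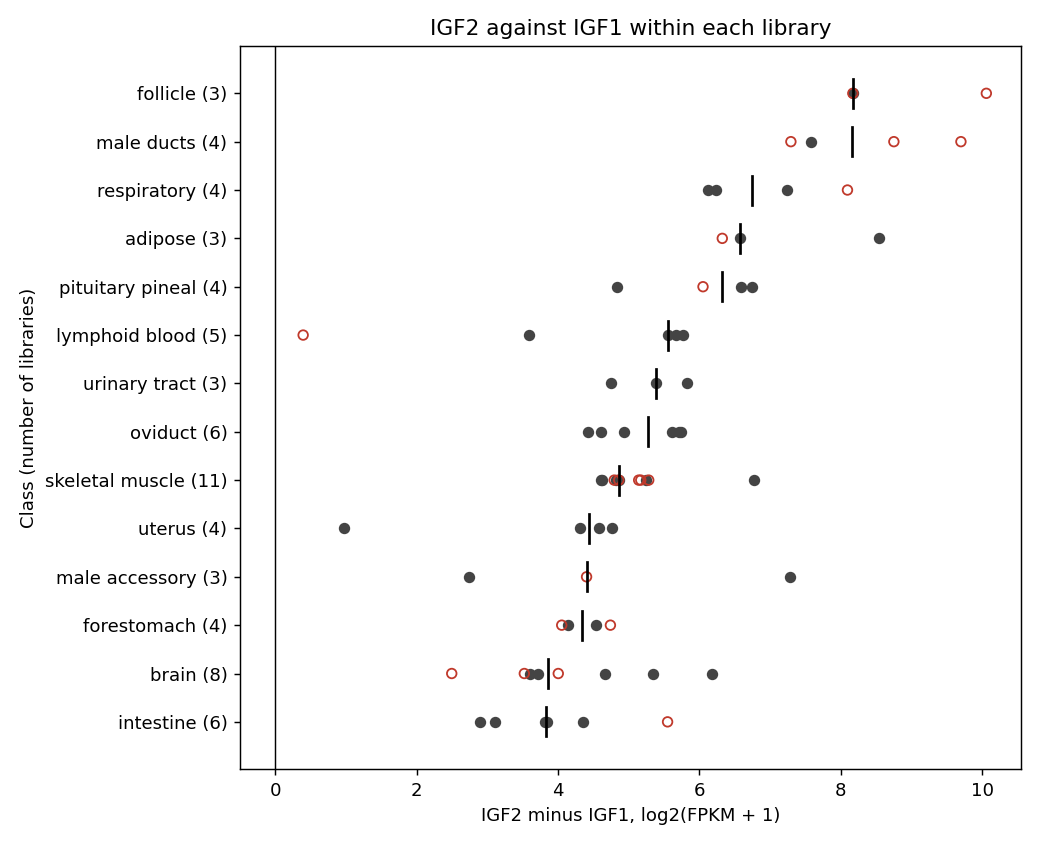
IGF2 minus IGF1 within each library, as a difference of log2(FPKM + 1) on the x axis, for the 14 classes on the y axis (number of libraries in brackets). Each point is a library, red open circles have IGF1 listed at 0, where the difference equals log2(IGF2 + 1), and bars are class medians. All points lie above 0, from 0.39 in white blood cells to 10.06 in a follicle library.

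Related tissues were then compared directly, with only their own libraries in the fit. The uterus exceeded the oviduct in GHR by 2.87 ± 0.59 on the log2 scale (SE; limma adjusted p = 0.0347), with 37.6, 25.2, 20.7 and 10.3 FPKM in the 4 uterine and 0.381 to 6.05 FPKM in the 6 oviduct libraries, so the ranges did not overlap. Of all genes 2.04% were called higher. The call was lost without any 1 of 6 of these libraries, the 3 endometrial ones among them (adjusted p up to 0.137). IGF1 did not overlap either, but narrowly, with 15.7 FPKM in the lowest uterine library and 14.5 in the ipsilateral isthmus, which stood apart. Its log2 difference of 1.76 ± 0.59 missed the threshold (SE; limma adjusted p = 0.116). The share of all genes whose ranges did not overlap was not computed. IGF2 differed by 0.24 ± 0.46, within its error (limma adjusted p = 0.781).

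Within the uterus the 3 genes were ordered differently, though myometrium is 1 library and was closest in profile to the trachea (0.919). Compared with the 3 endometrial libraries, myometrium had less GHR (10.3 FPKM against 27.8 ± 8.73, SD, n = 3) and less IGF2 (139 against 421 ± 92.0), but more IGF1 (70.1 against 16.8 ± 1.16). Each myometrial value lay outside the range of the endometrium. A single library can easily fall outside the range of 3, and the share of all genes that did so was not computed. IGF1 in myometrium ranked above 93.7% of the genes tested, whereas in the endometrial libraries it ranked above 65.2% to 69.5%.

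The libraries labelled fat had less GHR and more IGF2 than skeletal muscle. No fat library was closest in profile to another fat library. The closest was the urethra for KPH fat (0.969) and mammary gland fat (0.885), and the vesicular gland for subcutaneous fat (0.97). GHR was 4.08, 1.77 and 0.858 FPKM in fat and had a median of 32.9 FPKM in muscle, giving -3.21 ± 0.61 on the log2 scale (SE; limma adjusted p = 0.00132), with 4.78% of all genes called lower and a median difference of 0.57. Of the muscle libraries only internal tongue muscle, at 2.69 FPKM, lay within the fat range. IGF2 was 929.8, 366 and 79.1 FPKM in fat and had a median of 34.3 FPKM in muscle, a difference of 2.86 ± 0.69 (limma adjusted p = 0.00502), with 32.2% of genes called higher. Only the diaphragm-labelled library, at 237 FPKM, exceeded the lowest fat library in IGF2. Both calls held without any single library. IGF1 differed by 0.83 ± 0.34 (limma adjusted p = 0.0618), with 1.37 without mammary gland fat (limma adjusted p = 0.00335), 0.71 without subcutaneous fat (adjusted p = 0.193) and 0.40 without KPH fat (adjusted p = 0.408).

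Brain was lower than the pituitary and pineal group in IGF2, by -2.20 ± 0.68 on the log2 scale (SE; limma adjusted p = 0.0335), with 12.5% of all genes called lower. IGF2 was 192 FPKM in the pituitary stalk, 149 in the posterior and 36.2 in the anterior pituitary and 65.3 in the pineal gland, overlapping the brain range of 4.64 to 77.6. The call was lost without any 1 of 7 of these 12 libraries (adjusted p up to 0.111). GHR differed by -1.09 ± 0.36 (limma adjusted p = 0.0411), with brain values of 0 to 2.85 FPKM beside 1.90 to 4.21 FPKM in pituitary and pineal, and this call was lost under all 5 other settings tried and without any 1 of 8 of the 12 libraries. IGF1 differed by -0.33 ± 0.13 (limma adjusted p = 0.0851).

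Along the gut no member was called. Forestomach minus intestine, where 18.6% of all genes were called in either direction, gave -0.85 ± 0.32 for GHR (SE; limma adjusted p = 0.0797), -0.73 ± 0.39 for IGF1 (limma adjusted p = 0.196) and -0.29 ± 0.41 for IGF2 (limma adjusted p = 0.632). Small minus large intestine, where 0.122% of genes were called, gave 0.28 ± 0.46, 0.64 ± 0.47 and -0.31 ± 0.56 for GHR, IGF1 and IGF2 (SE; limma adjusted p = 0.91, 0.815 and 0.921). A missed threshold at these sizes does not show that the levels are alike.

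The sides of the female tract gave no common direction. GHR was 5.98 FPKM in the ipsilateral and 3.1 in the contralateral ampulla, but 0.381 and 6.05 in the isthmus, whose ipsilateral library was closest in profile to the cervical lining (0.884). It was 0.651 and 0.789 in the infundibulum and 25.2 and 20.7 in the intercaruncular endometrium. IGF2 was 249 FPKM in the ipsilateral and 218 in the contralateral ampulla, and lower on the ipsilateral side in the other 3 segments, at 332 and 549 in the isthmus, 121 and 298 in the infundibulum and 329 and 421 in the endometrium. The 4 segments were tested as pairs with limma, a comparison chosen after seeing the data. The log2 differences were -0.36 ± 0.61 for GHR (SE, 4 pairs; limma adjusted p = 0.969), -0.09 ± 0.38 for IGF1 (limma adjusted p = 1) and -0.54 ± 0.28 for IGF2 (limma adjusted p = 0.965). Of all genes 0.0% were called, and 403 had an unadjusted p under 0.05. Without the isthmus pair GHR was at 0.31, and without the infundibulum pair IGF1 was at 0.30.

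The genes most like each member over the 94 libraries were found by Spearman's rho of log2(FPKM + 1) among the genes tested, and are given by identifier only. GHR was most like ENSBTAG00000002938 and ENSBTAG00000006679 (rho 0.771 for each). ENSBTAG00000002938 was highest in caruncular endometrium and ENSBTAG00000006679 in pigment epithelium, neither in muscle. IGF1 was most like ENSBTAG00000000648 (rho 0.755), which reached 17.1 FPKM in caruncular endometrium, and ENSBTAG00000031453 (rho 0.715). IGF2 was most like ENSBTAG00000019368 (rho 0.802), an abundant transcript with a median of 271 FPKM, and ENSBTAG00000009177 (rho 0.776). By Pearson's r ENSBTAG00000019368 was again first for IGF2 (r 0.807), but the second gene was another. IGF1 was then most like ENSBTAG00000011324 (r 0.73), with ENSBTAG00000000648 second (r 0.725). For GHR both nearest genes were others.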

How the data were processed

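The deposited table holds 1 FPKM value per gene and library, computed by the authors; the submitters' processing notes name HISAT2, StringTie and the build UMD3.1, with no roles. Tool versions, gene annotation and filtering were not given in the sources used here. Ratios of low values between libraries showed no common step, so no reads were recovered and precision from depth is unknown. The RefSeq table used, of the assembly ARS-UCD2.0, matched 0 identifiers, so pathway and marker lists were not run and no coordinates or sequences are given.

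A gene entered the fit if 3 or more libraries had 1 FPKM or more of it, which left 18031 genes and all 3 members. The log2(FPKM + 1) scale understates the fold of low genes. The limma 3.58.1 fits (R 4.3.3, trend, two-sided) were adjusted by Benjamini-Hochberg over all genes of each comparison. They were also run on simulated normal values. These lack the many 0 values and possibly shared animals of the real data, so they cannot check the fits for either. Members, lists and the 13 libraries left out were chosen with earlier results of these data known. The named genes were the members and the 2 genes most like each. The sides of 4 segments of the female tract were compared with segment as a block. Python 3.11.15 with scipy 1.17.1 was used for the rest. Alternatives were a pseudocount of 0.1, no filter, equal totals, quantile normalization, group means, joint adjustment, and leaving out libraries.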

Additional observations from a re-analysis of the deposited data

Results flagged for a closer look

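In classes of 4 to 10 libraries, 27 sets of values (9 classes for each of the 3 genes) were searched for a library far from the others. In 3 sets such a library was found. The criterion flags about 1 set in 20 by chance if values are normally distributed. These FPKM are skewed and many are 0, so the count cannot be set against that rate. GHR in bone marrow was 18.6 FPKM, against 0.403 to 4.86 FPKM in the other lymphoid and blood libraries. IGF1 in vas deferens was 3.92 FPKM and was listed at 0 in the other 3 male duct libraries; with those at 0 any value above 0 meets the criterion, so it is no measure of distance. IGF1 in myometrium was 70.1 FPKM, against 15.7 to 18.0 FPKM in the endometrial libraries.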

How the results depend on the processing

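IGF1 in the uterus and oviduct, GHR in skeletal muscle and IGF2 in brain were called under every alternative tried and without any single library. GHR in the uterus fell short with a pseudocount of 0.1 (3.06) and quantile normalization (2.01). IGF2 in muscle fell short with equal totals (-1.38), quantile normalization (-0.81) and joint adjustment (-1.43). Uterus minus oviduct fell short for GHR with a pseudocount of 0.1 (3.54). GHR in brain minus pituitary and pineal fell short with a pseudocount of 0.1 (-1.97), no filter (-1.09), equal totals (-1.06), quantile normalization (-0.77) and group means (-1.09). The ligand difference in oviduct was 5.32 without the 13 libraries, with 5 libraries left. Calls were gained for IGF1 in brain with a pseudocount of 0.1 (-2.17) and quantile normalization (-1.03), and for GHR in brain with quantile normalization (-1.52) and group means (-1.10). Calls were gained for IGF1 in muscle with a pseudocount of 0.1 (-1.93) and without the 13 libraries (-1.04). Group means also called IGF2 in follicle (2.58), forestomach (-2.11) and intestine (-1.82), GHR in forestomach (-1.55) and IGF1 in uterus minus oviduct (1.76). The causes were not tested.

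Signs turned only for differences that were not called. IGF1 in adipose (-0.01) became 0.14 with a pseudocount of 0.1, 0.12 with quantile normalization, 0.038 with group means and 0.00077 without the 13 libraries. GHR in follicle (-0.29) became 0.046 without the 13. IGF1 in intestine (0.15) became -0.12 and GHR in lymphoid and blood (0.14) became -0.087 with quantile normalization, and the second -0.31 without the 13. GHR in pituitary and pineal (-0.11) became 0.23 with a pseudocount of 0.1 and 0.024 with group means, and IGF2 there (-0.12) became 0.059 without the 13. IGF1 in respiratory (-0.18) became 0.070 with a pseudocount of 0.1 and 0.031 with quantile normalization.

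Leaving out 1 library at a time gave ranges of -0.44 to 0.54 (IGF1, adipose), -0.35 to 0.60 (GHR, lymphoid and blood), -1.46 to 0.50 (IGF2, lymphoid and blood, above 0 without white blood cells), -0.15 to 1.09 (IGF1, male accessory), -1.84 to 0.53 (IGF2, male accessory), -0.21 to 0.071 (GHR, pituitary and pineal), -0.47 to 0.32 (IGF2, pituitary and pineal), -0.33 to 0.12 (IGF1, respiratory), -1.03 to -0.92 (IGF1, muscle), -1.68 to -1.37 (IGF2, muscle) and 2.15 to 2.74 (GHR, uterus). In direct comparisons they were 2.60 to 3.19 (GHR, uterus minus oviduct), 0.40 to 1.37 (IGF1, adipose minus muscle), -1.27 to -0.95 (GHR, brain minus pituitary and pineal), -2.63 to -1.84 (IGF2, brain minus pituitary and pineal) and -0.85 to 0.20 (IGF2, small minus large intestine). The ligand difference ranged over 3.61 to 4.14 in intestine and 5.06 to 5.32 in oviduct, where 5 libraries cannot pass an adjusted p of 0.05. The side differences of the female tract ranged over -0.73 to 0.31 (GHR), -0.29 to 0.30 (IGF1) and -0.79 to -0.30 (IGF2) with 1 pair left out, and without pairing none was called. Replicate numbers were given in accession order and pair nothing.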
